A study of Zygosaccharomyces parabailii with 12 samples.

Results

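The set described here holds the 100 genes of Z. parabailii with the largest increase in lactic acid over control that was reached at both 18 h and 42 h, of 9683 genes with a normalized expression value. They were chosen by those values. For each gene the log2 ratio of the group means of lactic acid and control, with 1 CPM (a count scaled by the effective size of its library) added to each mean, was taken at both times, and the genes with both ratios above 0 (3109 genes) were ranked by the smaller of the 2 ratios. The first 100 form the set. Because the ratios of lactic acid to control chose the genes, they are given below as a description, with no test.

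RNA was sequenced from batch bioreactor cultures of Z. parabailii strain ATCC60483, a hybrid yeast that tolerates weak acids and carries most genes as an A copy, derived from Z. bailii, and a B copy from another Zygosaccharomyces parent. An N at the end of a gene name marks a gene that the annotation places in neither class. There were 4 groups of 3 libraries, all from Verduyn medium with glucose at pH 3: lactic acid at 18 h, control at 18 h, lactic acid at 42 h and control at 42 h, where the lactic acid cultures held 40 g liter-1 lactic acid and the controls held none. The earlier time lies in exponential growth and the later one after the diauxic shift, when cells that have used up glucose turn to ethanol. The 3 samples of a group were taken from the fermentation of their condition, and nothing says that they were separate cultures, so that p-values measure the spread between samples, which may be technical. RNA was measured as a share of the RNA in each library, so more RNA of a gene and less RNA of others cannot be told apart.

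In yeasts that ferment, glucose represses respiration, gluconeogenesis and the use of other carbon sources, and these genes are released when glucose runs out. Electrons from the tricarboxylic acid (TCA) cycle pass through the cytochrome bc1 complex and cytochrome c oxidase to oxygen, and the ATP synthase uses the resulting proton gradient. Iron is needed for the hemes and iron-sulfur clusters of this chain, and in S. cerevisiae the oxidase Fet3 and the siderophore transporters of the ARN family bring it into the cell.

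Of the 12 libraries, the one of control replicate 2 at 18 h held 4596 counts and was left out of the ranking and of all tests, which leaves 2 libraries in control at 18 h. The other 11 held 8967267 to 17505293 counts. Lactic acid replicate 3 at 18 h stood apart in part of the set. Its level was more than 1 log2 unit below the mean of the other two libraries of its group in 18 of the 100 genes (18.0%), against 0.506% of all genes tested. Of the first 12 genes of the ranking, 10 are among these 18. In lactic acid at 42 h, replicate 3 was as far below the other two in 4 of the 100 genes, against 2.16% of all genes. These were O04160_N, F06100_B, O04010_A and A08990_B, which are also among the 18. The median log2 ratio at 18 h was 1.46 over the set, 1.54 without lactic acid replicate 3 at 18 h and 1.35 with that library alone, where 23 genes had a ratio below 1. Without that library the rule kept 90 of the 100 genes.

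The members' ratios were a median of 1.46 at 18 h and 1.62 at 42 h on the log2 scale, against 0.06 and -0.06 over all genes. At 18 h 85 members lay between 1 and 2, and 15 at 2 or more. At 42 h 67 lay between 1 and 2, and 33 at 2 or more. The ratio was larger at 42 h in 62 members and larger at 18 h in 38. Every lactic acid library lay above every control library in 99 members at 18 h, where 42.7% of all genes tested did so, and in all 100 at 42 h, where 30.2% did so. The exception at 18 h was A00310_N, annotated as a fructose symporter, with 10.7, 12.1 and 80.1 CPM in lactic acid against 6.86 and 23.7 CPM in control. With a call defined as an adjusted p below 0.05 by edgeR's quasi-likelihood test together with a log2 fold change of at least 1 in size, 99 members were called higher in lactic acid at 18 h and 100 at 42 h. At 18 h 4.25% of all genes were called higher and 20.7% lower, and at 42 h 7.05% were called higher and 9.9% lower. The rule used both contrasts, so nothing is read from the members' counts. With each library scaled by its total in place of TMM factors, the calls over all genes at 18 h were 1041 higher and 1612 lower, in place of 412 and 2000. Those at 42 h were 340 higher and 1893 lower, in place of 683 and 959.

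The heat map of the 100 genes shows how the members differ in time course. In 85 the highest group mean was lactic acid at 42 h, and in 15 it was lactic acid at 18 h. The lowest was control at 18 h in 83 and control at 42 h in 17. Median levels over the members were 118.7 CPM in lactic acid and 42.5 CPM in control at 18 h. At 42 h they were 388.9 CPM in lactic acid and 124.6 CPM in control, where the medians of all genes stayed between 34.2 and 37.2 CPM.

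**Figure D1:**
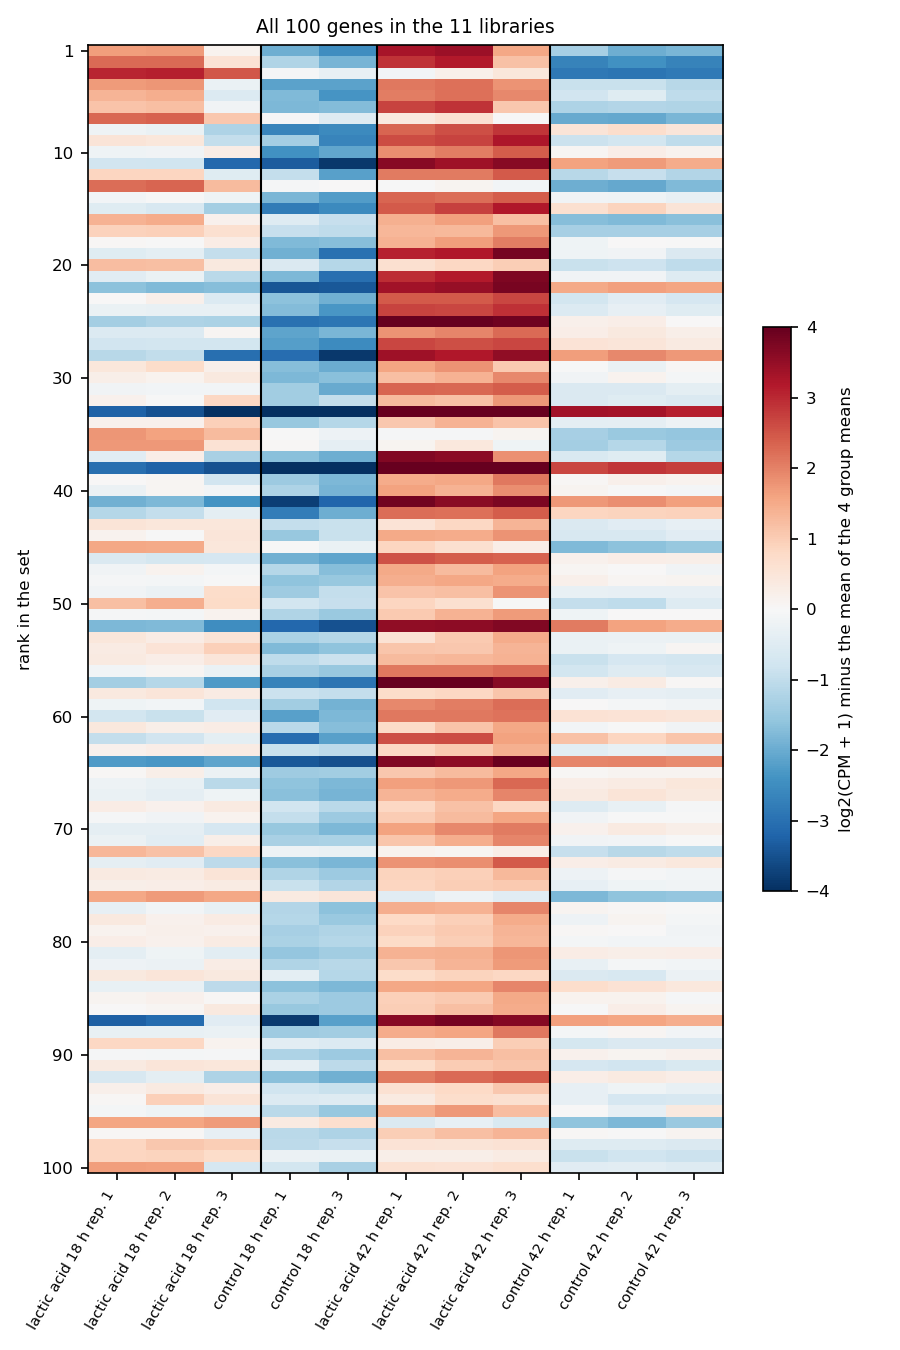
Each line is 1 of the 100 genes, in the order of the ranking, and each column is 1 of the 11 libraries, with the color giving log2(CPM + 1) minus the mean of the gene's 4 group means and ending at 4 units in either direction. In 85 genes the highest group mean is in lactic acid at 42 h, and near the top lactic acid replicate 3 at 18 h is paler than the other two libraries of its group.

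Together the members took a larger share of the counts at 42 h than at 18 h. It was 4.70%, 4.85% and 4.16% of all counts in lactic acid at 18 h, against 1.63% and 1.28% in control at 18 h. At 42 h it was 9.40%, 11.6% and 11.9% in lactic acid, against 3.54%, 3.53% and 3.75% in control. The groups did not overlap at either time, which the choice of the genes fixes. The shallow control library at 18 h, which the rule did not use, gave 121 of 4596 counts, or 2.63% (exact 95% interval 2.19 to 3.14%, counting error only), above the other control libraries and below the lactic acid libraries of 18 h. Part of these shares came from 3 genes of the mitochondrial genome, ZPARMT0001, ZPARMT030 and ZPARMT034, out of 13 such genes tested. At 18 h they held 1.80 to 1.91% of the counts in lactic acid and 0.606 and 0.873% in control. At 42 h they held 2.34 to 3.31% in lactic acid and 1.06 to 1.46% in control. ZPARMT030 had 9320, 10116 and 10051 CPM in lactic acid at 18 h, against 5663 and 3537 CPM in control. The sources used here give these 3 genes no name.

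O04160_N, an uncharacterized gene, came first in the ranking, with 28.9, 29.2 and 9.16 CPM in lactic acid against 1.41 and 0.651 CPM in control at 18 h. At 42 h it had 90.8, 99.9 and 26.1 CPM in lactic acid against 2.69, 1.42 and 1.62 CPM in control. Replicate 3 was the lowest lactic acid library at both times, and still above every control library. F06100_B, related to the GNAT family of acetyltransferases, which move acetyl groups onto amines, followed with 97.5, 96.9 and 29.6 CPM in lactic acid against 8.02 and 4.61 CPM in control at 18 h. At 42 h it had 153, 186 and 45.7 CPM in lactic acid against 2.21, 2.84 and 2.24 CPM in control, a 52.7-fold ratio of the means. Its A homeolog N00280_A was also a member, with log2 ratios of 2.28 and 2.32 at 18 h and 42 h against 3.37 and 5.23 for the B copy. That is the pair with the largest gap between its copies in the set.

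F06230_N, annotated as a fructose facilitator of the FFZ type, which carries fructose across the plasma membrane in Zygosaccharomyces, was next. It had 601, 624 and 409.5 CPM in lactic acid against 69.3 and 58.5 CPM in control at 18 h, and 66.7, 83.1 and 98.9 CPM in lactic acid against 8.98, 8.62 and 9.33 CPM in control at 42 h. The ratio was 3.07 on the log2 scale at both times, while the level was several times lower at the later time in both cultures. O04010_A, described with a phenazine biosynthesis domain, had 101.3, 106 and 41.1 CPM in lactic acid against 12.3 and 12.8 CPM in control at 18 h. O00340_A, with no annotation, had 110.4, 109.6 and 20.5 CPM in lactic acid against 18.1 and 12.1 CPM in control at 18 h. Replicate 3 in lactic acid lay close to the control libraries there, and far above them at 42 h, with 2361, 1995 and 2395 CPM in lactic acid against 575, 614 and 536 CPM in control.

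**Figure D2:**
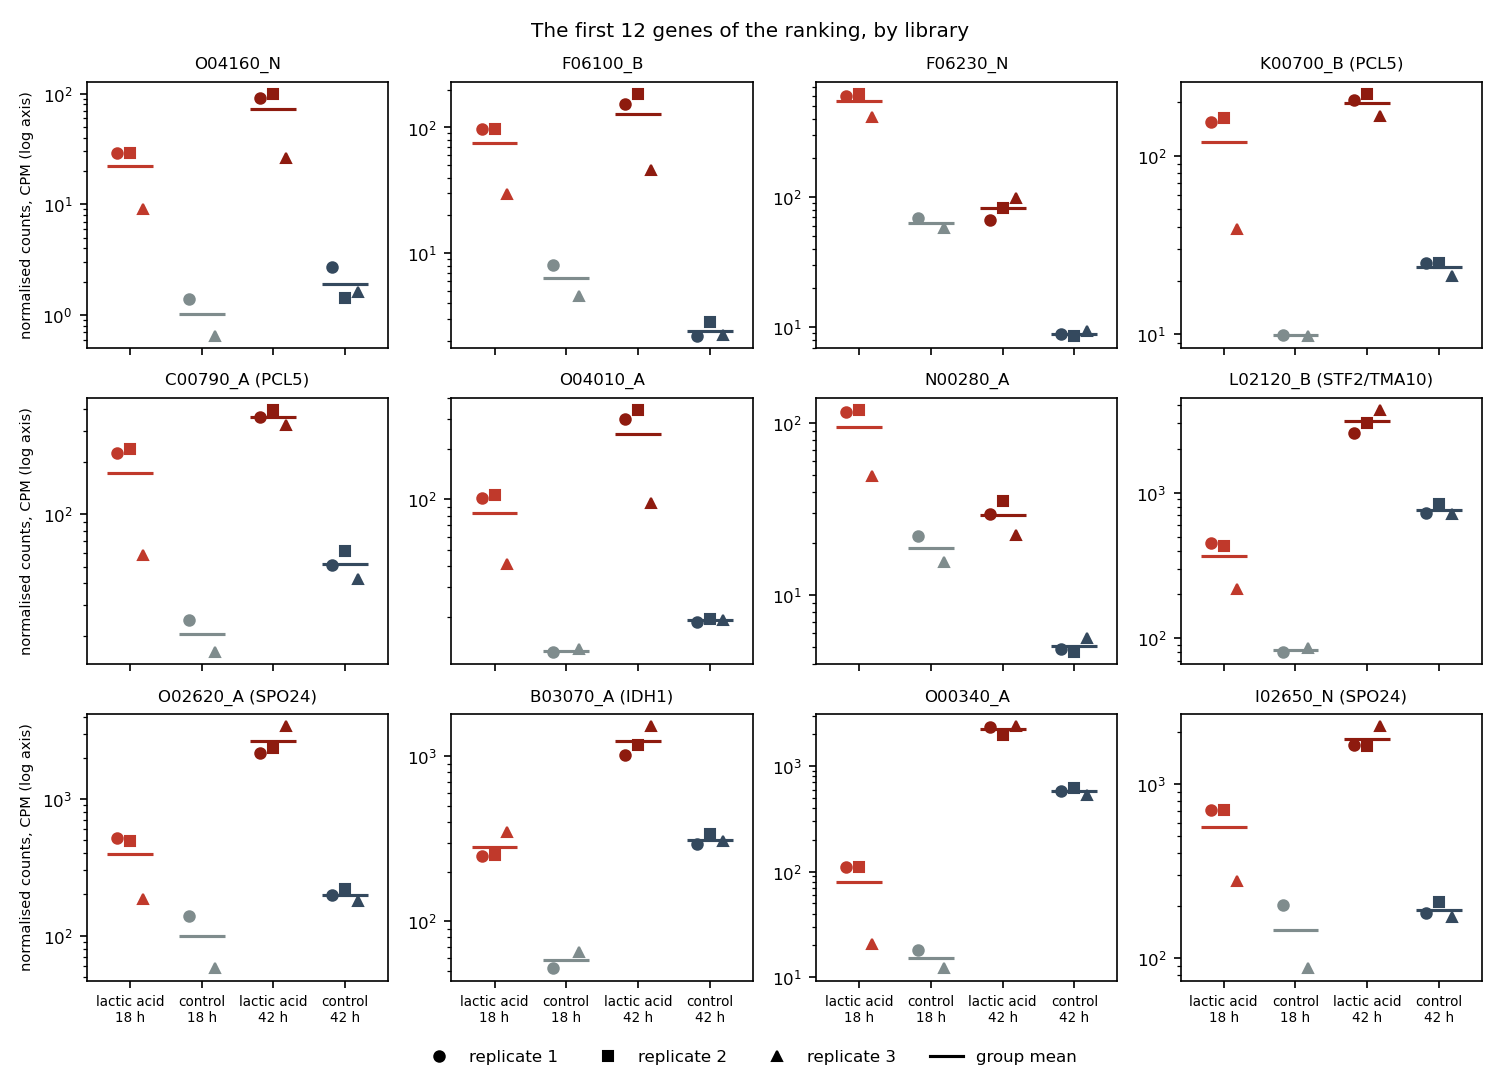
Normalised counts of the first 12 genes of the ranking, in CPM on a log axis, with a point for each library (the shape gives the replicate number) and a bar for the mean of its group. In 10 of the 12 panels replicate 3 of lactic acid at 18 h lies more than 1 log2 unit below the mean of the other 2 libraries of its group. F06230_N and N00280_A have their highest group mean at 18 h.

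Both copies of PCL5 were among the first 5 genes. In S. cerevisiae Pcl5 is the cyclin that directs a kinase to Gcn4, the activator of amino acid synthesis, which is then degraded. The B copy K00700_B had 155, 162 and 39.0 CPM in lactic acid against 9.92 and 9.82 CPM in control at 18 h, and 205, 222 and 167 CPM in lactic acid against 25.1, 24.9 and 21.3 CPM in control at 42 h. The A copy C00790_A had 223, 235 and 58.1 CPM in lactic acid against 24.8 and 16.1 CPM in control at 18 h. Of the list of lysine and arginine synthesis and Gcn4 control, the set also held both copies of ARG7, the ornithine acetyltransferase of arginine synthesis. K00550_B had 263, 281 and 134 CPM in lactic acid against 52.6 and 55.5 CPM in control at 18 h, and 54.3, 59.7 and 50.2 CPM in lactic acid against 13.3, 12.4 and 15.4 CPM in control at 42 h. Of the 16 other genes tested from that list, 4 were called higher and 3 lower in lactic acid at 18 h, against 4.25% and 20.7% of all genes. At 42 h 1 was called higher and 1 lower, against 7.05% and 9.9% of all genes. The 4 called higher at 18 h were both copies of LYS20/LYS21, homocitrate synthase, and both copies of LYS9, saccharopine dehydrogenase. The median log2 fold change of those 16 genes was 0.34 at 18 h and 0.23 at 42 h, against 0.07 and -0.06 over all genes tested. For this and the other lists, being outside the set caps the smaller ratio of these genes. The lists were chosen with earlier results of these data known, so nothing is read from how many members each holds.

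The largest group in the set belonged to the respiratory chain and the ATP synthase, with 19 members of 60 genes tested. From the bc1 complex they were QCR2, QCR7, QCR8, QCR9 and QCR10 and RIP1, the iron-sulfur protein. From cytochrome c oxidase they were COX7, COX8 and COX26, and from the ATP synthase ATP14, ATP15 and the regulator STF2/TMA10. For QCR8, QCR9, RIP1, COX8, COX26, ATP15 and STF2/TMA10 both homeologs were members. The B copy of STF2/TMA10, L02120_B, had 451, 427 and 217 CPM in lactic acid against 80.2 and 85.7 CPM in control at 18 h, and 2593, 3026 and 3710 CPM in lactic acid against 724, 839 and 717 CPM in control at 42 h. COX8 (N03040_A), a small subunit of cytochrome c oxidase, had 189, 183 and 224 CPM in lactic acid against 52.6 and 55.9 CPM in control at 18 h, and 476, 582 and 756 CPM in lactic acid against 161, 184 and 179 CPM in control at 42 h. COX26 (D02375_N), a small protein bound to that oxidase, differed more at 42 h, with 2359, 2285 and 2726 CPM in lactic acid against 243, 287 and 253 CPM in control. In each of these genes the lactic acid libraries lay above the control libraries at both times. The same held for 99 members of the set, and for 18.7% of all genes tested. The rule chose the members from these libraries, so nothing is read from this separation. Of the 41 genes of the list outside the set, 29 were called higher and 3 lower in lactic acid at 18 h, against 4.25% and 20.7% of all genes. At 42 h 11 of the 41 were called higher and none lower, against 7.05% and 9.9% of all genes. Their median log2 fold change was 1.33 at 18 h and 0.78 at 42 h. The 3 called lower at 18 h were both copies of SDH1, a subunit of succinate dehydrogenase, and the B copy of NDI1, the internal NADH dehydrogenase.

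Mitochondrial membrane and assembly genes gave 10 members of 29 tested, namely both copies of FMP16, MIX17 and PIC2 and 1 copy each of MIR1, PAM17, SUE1 and MIC27. Mir1 and Pic2 are phosphate carriers of the inner membrane in S. cerevisiae, and Pam17 belongs to the motor that pulls proteins into the matrix. MIR1 (E00230_A) had 684, 691 and 1166 CPM in lactic acid against 210.4 and 276 CPM in control at 18 h, and 1286, 1604 and 1350 CPM in lactic acid against 462, 478 and 533 CPM in control at 42 h. The A copy of FMP16, D03700_A, had 82.9, 75.5 and 78.8 CPM in lactic acid against 23.1 and 23.5 CPM in control at 18 h. Of the 19 genes outside the set, 9 were called higher in lactic acid at each time (4.25% of all genes at 18 h, 7.05% at 42 h). A copy of COA3 was the 1 gene called lower at 18 h, where 20.7% of all genes were. None was called lower at 42 h, where 9.9% were.

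Of the list for the TCA and glyoxylate cycles, pyruvate entry and gluconeogenesis, 8 of 39 genes tested were members. They were both copies of IDH1, a subunit of NAD-dependent isocitrate dehydrogenase, both copies of MPC3/MPC2, which encode the mitochondrial pyruvate carrier, and 1 copy each of ACH1, CIT2/CIT1, FBP1 and GOR1. The A copy of IDH1, B03070_A, had 248, 253 and 347 CPM in lactic acid against 52.0 and 65.6 CPM in control at 18 h, and 1020, 1167 and 1517 CPM in lactic acid against 295, 336 and 307 CPM in control at 42 h. MPC3/MPC2 (M00830_B) had 369, 421 and 251 CPM in lactic acid against 117 and 95.5 CPM in control at 18 h, and 1989, 2029 and 2321 CPM in lactic acid against 217, 265 and 229 CPM in control at 42 h. ACH1 (I03690_B), a coenzyme A transferase that acts on acetate, had 182, 197 and 193 CPM in lactic acid against 57.5 and 61.9 CPM in control at 18 h. At 42 h it had 8448, 8176 and 6862 CPM in lactic acid against 531, 559.7 and 467 CPM in control, a 15.1-fold ratio. Of the 31 genes of this list outside the set, 3 were called higher and 10 lower in lactic acid at 18 h, against 4.25% and 20.7% of all genes. At 42 h 11 were called higher and 3 lower, against 7.05% and 9.9% of all genes.

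Iron uptake gave 3 members of 24 genes tested, both copies of FET3 and the A copy of CTH1/TIS11, whose S. cerevisiae relatives bind messages of iron-using proteins and speed their decay. The A copy of FET3, C00700_A, had 411, 416 and 341 CPM in lactic acid against 113 and 107 CPM in control at 18 h, and 548, 537 and 718 CPM in lactic acid against 85.6, 85.0 and 86.3 CPM in control at 42 h. The B copy K00610_B, ranked 98, had 573, 675 and 626 CPM in lactic acid against 153 and 167 CPM in control at 18 h, and 469, 451 and 476 CPM in lactic acid against 223, 221 and 213 CPM in control at 42 h. The A copy thus had the larger log2 ratio at 42 h, 2.80 against 1.08, and the 2 copies were close at 18 h, with 1.82 and 1.96. Of the 21 iron genes outside the set, 4 were called higher at 18 h (4.25% of all genes) and 6 at 42 h (7.05%). None was called lower at either time, where 20.7% and 9.9% of all genes were. Among the 7 siderophore transporters tested, G04250_B and B02380_A, a homeolog pair annotated as ARN1, were members. G04250_B had 254, 227 and 179 CPM in lactic acid against 73.9 and 64.1 CPM in control at 18 h, and 72.3, 72.0 and 80.7 CPM in lactic acid against 28.8, 25.9 and 24.6 CPM in control at 42 h. The other 5 transporters were all called higher at 18 h and none of them at 42 h. This list was drawn from genes that the paper reports as raised by lactic acid in these same libraries. The calls at the earlier time were thus largely fixed by the list, and nothing is read from them.

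From redox defense the members were both copies of CCP1, the cytochrome c peroxidase of mitochondria, and the A copy of SOD1, the copper-zinc superoxide dismutase, of 31 genes tested. CCP1 (O03050_A) had 61.5, 65.8 and 44.5 CPM in lactic acid against 22.1 and 10.1 CPM in control at 18 h, and 731, 804 and 1248 CPM in lactic acid against 76.0, 78.7 and 57.5 CPM in control at 42 h. SOD1 (O02860_A) had 324, 333 and 347 CPM in lactic acid against 147 and 122 CPM in control at 18 h, and 505, 544 and 565 CPM in lactic acid against 221, 245 and 251 CPM in control at 42 h. Of the 28 redox genes outside the set, 6 were called higher and 6 lower at 18 h, where 4.25% of all genes were called higher and 20.7% lower. At 42 h 6 were called higher and 3 lower, against 7.05% and 9.9% of all genes. The paper names CCP1 and SOD1, and genes of the iron and TCA lists such as FET3 and FBP1, as raised in these same libraries. These lists are thus not independent of its results.

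The list of glucose repression and carbon signaling gave 4 members of 25 tested, and it also holds a transporter gene, STL1. STL1 (K00540_B), the glycerol and proton symporter of S. cerevisiae, had 21.0, 17.6 and 9.24 CPM in lactic acid against 4.88 and 4.85 CPM in control at 18 h. At 42 h it had 12048, 10306 and 8001 CPM in lactic acid against 2124, 2095 and 1813 CPM in control. The others were MIG3/MIG2 (E05480_A), a repressor of glucose-repressed genes, and both copies of GPG1, a small partner of a G protein. Of the 21 genes outside the set, 12 were called lower and 2 higher in lactic acid at 18 h, whereas 10 were called higher and 2 lower at 42 h. The list of meiosis and spore formation gave 2 members of 26, both copies of SPO24. O02620_A had 519, 489 and 184 CPM in lactic acid against 139.7 and 57.5 CPM in control at 18 h, and 2186, 2355 and 3410 CPM in lactic acid against 199, 218 and 179 CPM in control at 42 h. Of the 24 others, 9 were called lower and 1 higher at 18 h, whereas 9 were called higher and 6 lower at 42 h. For this list and the carbon signaling list, the shares over all genes are those given for the redox genes. The 6 genes related to formate dehydrogenase were all called higher at 18 h, 2 of them lower at 42 h, and none is a member. Of the 3 genes tested from the FIT2 family of cell wall mannoproteins, which hold siderophores in S. cerevisiae, 2 were called higher at both times, and none is a member. The other gene tested from the FFZ list, N00190_A, was called higher at both times, with a log2 fold change of 1.20 at 42 h. The paper, which used limma-voom, reports N00190_A as raised only at 18 h. The paper describes the formate dehydrogenase, mannoprotein and fructose facilitator families as changed by lactic acid in these same libraries. Nothing is therefore read from the calls of these families.

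**Figure D3:**
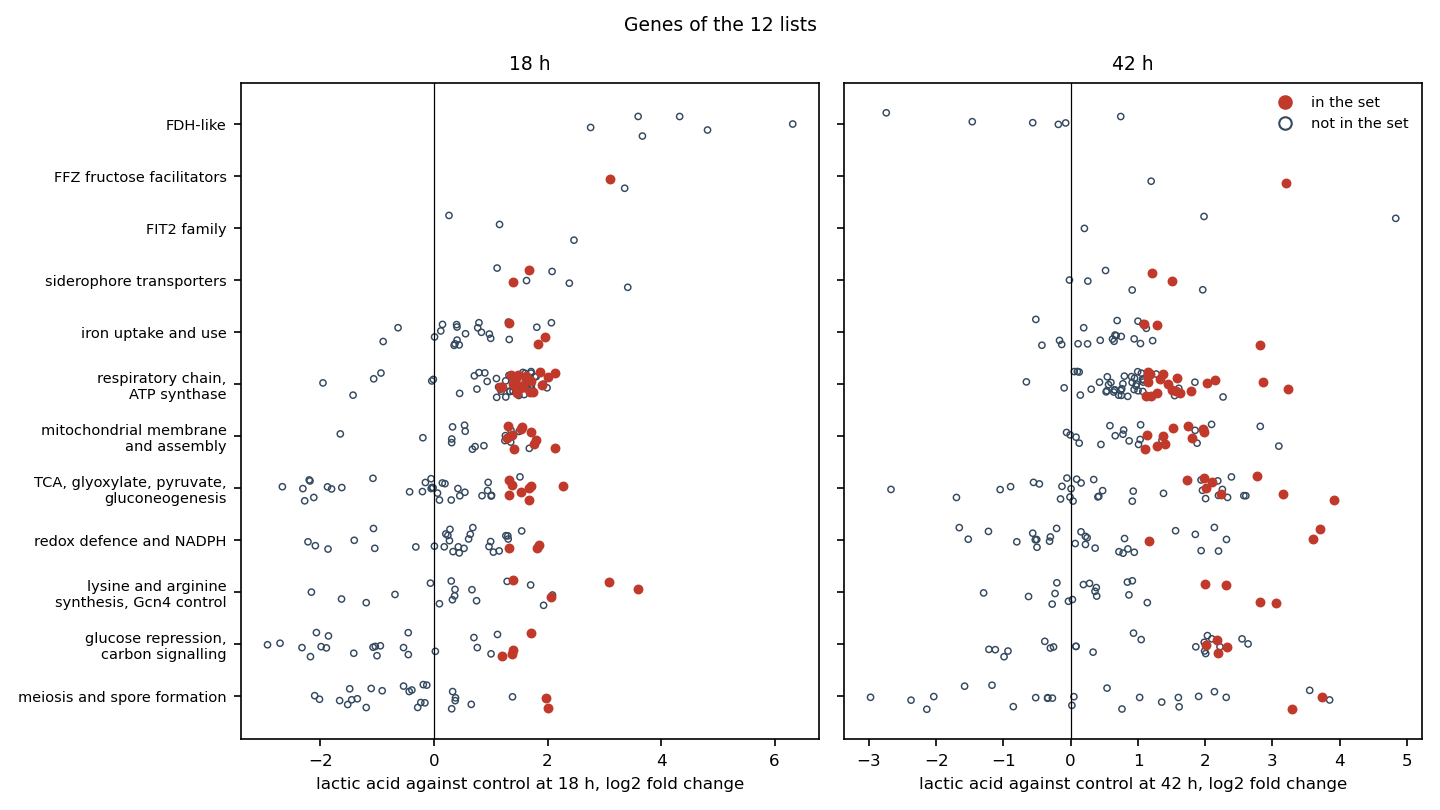
Log2 fold change in lactic acid against control at 18 h (left) and 42 h (right) for the genes of the 12 lists, with 1 point for each gene. Filled points are members and open points are the other genes of the list. The median of the 41 open points of the respiratory chain and ATP synthase is 1.33 at 18 h and 0.78 at 42 h, whereas most open points of the carbon signaling list lie below 0 at 18 h.

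The lists, chosen with earlier results of these data known, covered 56 of the 100 members. Of the other 44, M02970_N, described as an antibiotic biosynthesis monooxygenase, was the most abundant gene of the nuclear genome in lactic acid at 18 h within the set, with 10634, 10344 and 5921 CPM against 3028 and 2040 CPM in control. At 42 h it had 7047, 7891 and 8813 CPM in lactic acid against 2395, 2498 and 2225 CPM in control. L05300_N, related to epoxide hydrolases, was among the rarest, with 4.11, 5.08 and 2.79 CPM in lactic acid against 0.331 and 0.177 CPM in control at 18 h. Its ratio of means was 15.7-fold, but the 1 CPM added by the rule brings it to 1.99 on the log2 scale. The level of I01870, with no annotation, was 1228, 1669 and 5777 CPM in lactic acid against 402, 461 and 434 CPM in control at 42 h, so that replicate 3 set much of the mean in lactic acid.

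At the edge of the set, ranks 98 to 100 were K00610_B (FET3), I04360_B and H01520_B (ATG41/ICY1), with a smaller ratio of 1.08 each. The next 3 genes, outside the set, were C00340_A (ATP7), E02710_A (COX12) and A04560_B (ATP4), with 1.08, 1.07 and 1.07. They belong to the respiratory chain and the ATP synthase. H01520_B, just inside, had 154, 148 and 29.1 CPM in lactic acid against 27.7 and 18.4 CPM in control at 18 h, so that replicate 3 in lactic acid barely cleared the control.

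The change between the times, which the rule did not use, was tested in each culture. Of the 100 members, 63 were called higher at 42 h than at 18 h in lactic acid, where 24.9% of all genes were, and 7 lower, where 24.3% were. In control 63 were called higher, where 15.6% of all genes were, and 9 lower, where 18.9% were. The median log2 change was 1.42 in lactic acid and 1.31 in control, against 0.00 and -0.10 over all genes. The change was above 0 in 85 members in lactic acid and in 83 in control, against 49.9% and 45.9% of all genes. In all, 54 members were called higher in both cultures and 7 lower in both, against 1237 and 1339 of all 9683 genes tested. No member was called in opposite directions, which was rare over all genes too. Among these, 18 were higher in lactic acid and lower in control, and 7 were lower in lactic acid and higher in control. The 2 contrasts share no library with each other, but they use the libraries that chose the members. With library totals in place of TMM factors, 54 members in place of 63 were called higher in lactic acid. Over all genes that scaling gave 1844 higher and 3037 lower in lactic acid, in place of 2412 and 2355, and 1969 higher and 1313 lower in control, in place of 1507 and 1831.

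The members with the 5 largest increases with time in each culture were STL1 (K00540_B), I01870, FMP16 (F02430_B) and FBP1 (F01610_A) in both, with H04990_N in lactic acid and I00340_B in control. STL1 (K00540_B) was 9.31 ± 0.36 higher on the log2 scale at 42 h than at 18 h in lactic acid (SE, edgeR quasi-likelihood test, adjusted p = 1.03e-09) and 8.69 ± 0.43 higher in control (adjusted p = 1.92e-08). FBP1 (F01610_A), fructose-1,6-bisphosphatase of gluconeogenesis, had 1202, 1019 and 1118 CPM at 42 h against 20.7, 23.0 and 14.7 CPM at 18 h in lactic acid. In control it had 274, 302 and 256 CPM at 42 h against 5.13 and 8.28 CPM at 18 h. I01870 rose by 8.97 ± 0.62 in lactic acid and by 8.21 ± 0.77 in control, and FMP16 (F02430_B), a mitochondrial protein of unknown function, by 6.01 ± 0.16 and 5.49 ± 0.19. ACH1 (I03690_B) rose by 5.36 ± 0.17 in lactic acid and 3.12 ± 0.18 in control, and H04990_N, uncharacterized, by 5.83 ± 0.33 and 3.25 ± 0.37. O00340_A rose by 4.81 ± 0.51 in lactic acid and by 5.26 ± 0.63 in control, and I00340_B, also without annotation, by 4.85 ± 0.46 and 5.27 ± 0.57. In all of these genes the libraries of 42 h lay above those of 18 h in both cultures, at adjusted p of 1.33e-05 or below by edgeR.

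F06230_N, the fructose facilitator, fell by 2.72 ± 0.19 on the log2 scale in lactic acid (edgeR, adjusted p = 4.8e-08) and by 2.83 ± 0.21 in control (adjusted p = 2.61e-07). J05020_A and A06820_B, a homeolog pair of uncharacterized genes, fell by 2.26 ± 0.14 and 2.04 ± 0.11 in lactic acid, and by 2.48 ± 0.17 and 2.25 ± 0.13 in control. ARG7 (K00550_B) fell by 2.05 ± 0.23 in lactic acid and 1.98 ± 0.25 in control, and the acetyltransferase gene N00280_A by 1.70 ± 0.29 and 1.88 ± 0.37. The siderophore transporter G04250_B fell by 1.55 ± 0.13 in lactic acid and by 1.38 ± 0.15 in control. A00250_B, described as Sam4p, the homocysteine methyltransferase, completed the 7. The B homeolog of N00280_A, F06100_B, was called in neither culture, with 0.78 ± 0.47 in lactic acid (edgeR, adjusted p = 0.146) and -1.37 ± 0.76 in control (adjusted p = 0.124).

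**Figure D4:**
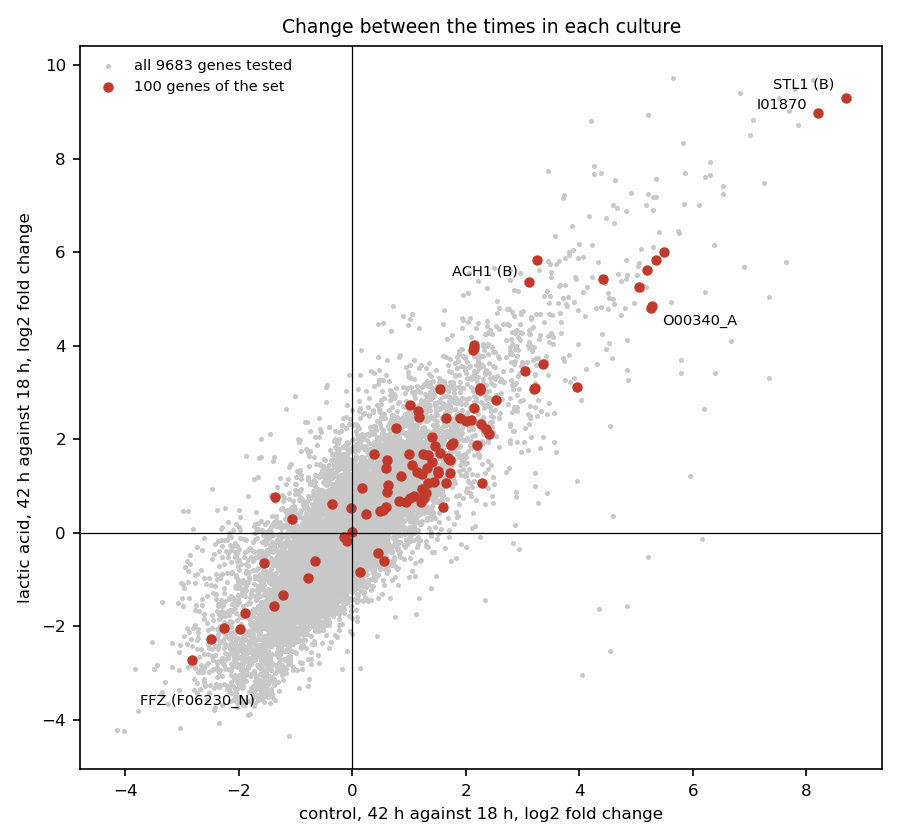
Log2 fold change of 42 h against 18 h in lactic acid (vertical axis) and in control (horizontal axis), with a gray point for each of the 9683 genes tested and a red point for each of the 100 members. STL1 and I01870 stand at the upper right with values above 8 on both axes, and F06230_N at the lower left with -2.72 and -2.83.

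A homeolog was known for 74 members. In 48 of them it was a member too, which makes 24 pairs. Within the pairs the ratios of the 2 copies differed by a median of 0.18 at 18 h and 0.22 at 42 h on the log2 scale, and in 20 pairs by less than 0.5 at both times. Both copies of these pairs had passed the rule, which narrows the range of their ratios. The gap over all homeolog pairs was not measured, so nothing is read from the small gaps. Among the 21 pairs of an A and a B copy, the A copy had the larger ratio in 6 at 18 h and in 10 at 42 h. The exceptions to the small gaps were N00280_A with F06100_B, the IDH1 pair, the ARG7 pair and the FET3 pair.

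The 26 homeologs outside the set were all tested, although being outside caps their ratios. In lactic acid 13 were called higher at 18 h, 17 at 42 h and 7 at both times, and none was called lower at either time. Over all genes 4.25% were called higher and 20.7% lower at 18 h, and at 42 h 7.05% and 9.9%. The median log2 fold change of the homeologs was 1.04 at 18 h and 1.06 at 42 h, against 0.07 and -0.06 over all genes, and 24 of the 26 had a positive value at both times. Scaled by library totals in place of TMM, 10 in place of 17 were called higher at 42 h. Several missed the set by little. G00410_B, the B copy of QCR7, a subunit of the bc1 complex, was 1.49 ± 0.15 higher on the log2 scale at 18 h (edgeR, adjusted p = 8e-06) and 1.07 ± 0.13 at 42 h (adjusted p = 3.4e-05). A03390_B, the B copy of ATP14, was 1.78 ± 0.17 and 1.05 ± 0.14 higher. L01180_B, the B copy of PAM17, was 1.33 ± 0.17 and 1.04 ± 0.14 higher.

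The response to lactic acid differed between the times in 12 of the 26 (46.2%) by the interaction term of the edgeR model at an adjusted p below 0.05. Over all genes 53.7% passed that test, so the homeologs were near the background in this respect. The A copy of ACH1, D03990_A, had 87.4, 85.8 and 74.1 CPM in lactic acid against 69.4 and 74.9 CPM in control at 18 h, where the B copy, a member, had a 3.20-fold ratio. At 42 h D03990_A was 2.60 ± 0.23 higher on the log2 scale (edgeR, adjusted p = 4e-06). The B copy of SOD1, I02890_B, had 136, 126 and 146 CPM in lactic acid against 122 and 102 CPM in control at 18 h, with a log2 change of 0.28 ± 0.13 (edgeR, adjusted p = 0.0673), and was 0.95 ± 0.11 higher at 42 h (adjusted p = 3.2e-05). G05280_B, the homeolog of the uncharacterized member B01350_A, had 0.082 ± 0.21 at 18 h (edgeR, adjusted p = 0.741) and was 0.79 ± 0.18 higher at 42 h (adjusted p = 0.00281). D00320, the homeolog of O04010_A, was called at neither time, with -0.022 ± 0.25 at 18 h (edgeR, adjusted p = 0.942) and 0.30 ± 0.23 at 42 h (adjusted p = 0.275). Its levels of 16.8 to 29.9 CPM in lactic acid and 24.3 to 26.3 CPM in control at 18 h overlapped. O04010_A had a 6.60-fold ratio at 18 h and a 12.8-fold ratio at 42 h. B08430_A, the A copy of ATG41/ICY1, had 96.6, 88.1 and 15.1 CPM in lactic acid against 16.5 and 10.6 CPM in control at 18 h, and replicate 3 in lactic acid lay within the control range. It was 2.31 ± 0.57 higher at 18 h (edgeR, adjusted p = 0.00356), or 2.78 without that library, and -0.24 ± 0.49 at 42 h (adjusted p = 0.697).

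**Figure D5:**
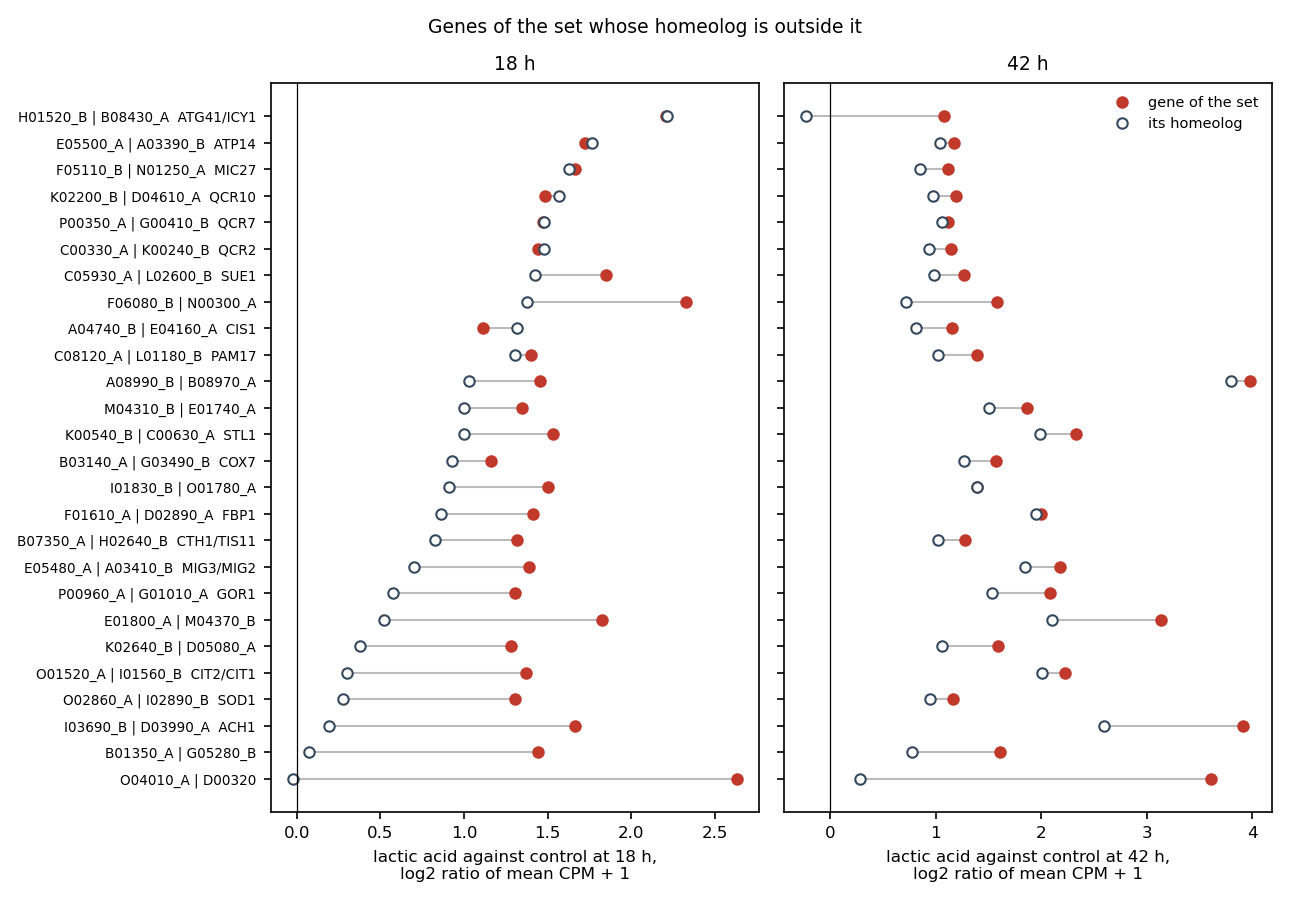
The 26 members whose homeolog is outside the set, with the member (filled) and its homeolog (open) joined by a line, at 18 h (left) and 42 h (right). The axes give the log2 ratio of mean CPM + 1 in lactic acid to control. The homeolog of O04010_A lies near 0 at 18 h and at 0.29 at 42 h, against 2.63 and 3.61 for the member.

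The members were shorter than other genes. Their median coding length was 693 bases, against 1230 over all genes tested, and 35 of the 100 were under 500 bases, against 10.8% of all genes. When the trend of expression with coding length was removed from each library, 62 members were called higher at 18 h in place of 99, and 64 stayed among the first 100 of the ranking. Of the 35 short members 13 stayed, and of the 65 longer ones 51. Over all genes, removal of the trend gave 377 called higher and 1530 lower at 18 h, in place of 412 and 2000. The part of length in the ratios was not tested further. By origin, 45 members were A genes, 37 B genes and 12 N genes, against 46.4%, 42.7% and 7.36% of all genes, and 6 had no class in the annotation used here. Of the members 12 lay within 20 genes of a chromosome end, against 4.72% of all genes. In 8 members another member lay at most 2 genes away (3.66% of all genes tested had a member so near), including STL1 and ARG7 on the B copy of 1 region. There STL1, ARG7, FET3 and PCL5 lay within a run of 17 genes. In the A copy of that region, also a run of 17 genes, ARG7, FET3 and PCL5 were members and STL1 (C00630_A) was not, with log2 fold changes of 1.12 and 1.99 at 18 h and 42 h. None of the members was in the table of 232 genes that are identical to another gene over their whole length.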

How the data were processed

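The 12 rRNA-depleted libraries were sequenced and aligned by the authors with Bowtie 1.1.2 without mismatches, and HTSeq 0.6.0 counted reads per gene, so the deposited full table holds raw counts. The authors' normalized table, from edgeR 3.18.1, holds signal values, namely CPM after TMM scaling of library sizes, and it defined the set. The authors' duplicated table gives counts for genes identical to at least 1 other gene, from reads with 2 placements, and its RPKM table was not used here.

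Counts were analysed with edgeR 4.0.16 under R 4.3.3 (alternatives with DESeq2 1.42.0 and limma 3.58.1), after 14 entries (pseudogenes and ZPAR2M0002, outside the nuclear and mitochondrial genes; 0.0575 to 0.344% of counts) were dropped. Genes needed 1 CPM in 3 libraries of a condition. One quasi-likelihood model of the 4 groups gave two-sided tests with Benjamini-Hochberg adjustment over all genes. Called genes had an adjusted p below 0.05 and a log2 fold change of at least 1 in size. The SE is the fold change divided by the root of F. Fits were tested on simulated data.

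The members and lists were chosen with earlier results of these data known. Named genes are the first 12, up to 5 members of each list, the 3 genes on either side of the limit of the set, up to 5 members per direction with the largest called change with time and no overlap, and the 5 highest and 5 lowest homeologs. A00310_N, A08990_B, M02970_N, L05300_N, A00250_B, B01350_A, C00630_A, the 3 mitochondrial genes and the list genes outside the set were named after their values were seen. Names, classes and homeologs come from the part of the study's annotation at hand, coding lengths and gene order from RefSeq assembly ASM198439v2 (96.9% of lengths are multiples of 3). Most lists were matched by S. cerevisiae name and 4 by gene ID, so lists are partial. Alternatives were DESeq2, limma-voom, other scalings, filters and pseudocounts, a replicate block, removal of the length trend and leaving out each library. Ratios from lactic acid replicate 3 at 18 h alone, and without it, were added after seeing the data. Promoter sequence was not analysed here.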

Additional observations from a re-analysis of the deposited data

Results flagged for a closer look

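The 2 copies of FET3 changed in opposite directions with time in the 2 cultures. The A copy C00700_A had a log2 change from 18 h to 42 h of 0.63 in lactic acid and -0.36 in control, with every library of 42 h above those of 18 h in lactic acid and below them in control. The B copy K00610_B had -0.42 in lactic acid and 0.45 in control, again without overlap. The difference between the cultures was not tested for these genes, because the rule used the same libraries for it. All 4 values are under the fold change of 1 that a call needs.

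Of the 26 homeologs outside the set, 12 (46.2%) differed in their response between the times by the interaction term of the edgeR model (adjusted p below 0.05), where 53.7% of all genes did so. Being outside the set caps the smaller of their 2 ratios. In 7 the response was larger at 42 h and in 5 at 18 h. Among those named, the response at 42 h minus that at 18 h was 2.41 for the A copy of ACH1 (D03990_A, adjusted p = 0.000154) and 0.66 for the B copy of SOD1 (I02890_B, adjusted p = 0.00653). It was -0.73 for the B copy of ATP14 (A03390_B, adjusted p = 0.0125) and -2.55 for the A copy of ATG41/ICY1 (B08430_A, adjusted p = 0.0135).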

How the results depend on the processing

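The rule kept 95 of the 100 genes with 0.5 CPM added, 89 with 5 and 82 with 10, 98 with means of log2 values, 98 with RLE scaling, 72 with library totals and 64 with the length trend removed, and 85 to 98 when each library was left out. Library totals moved the median over all genes to 0.28 on the log2 scale at 18 h and -0.39 at 42 h, and called 75 members higher at 42 h. Removal of the length trend called 62 members higher at 18 h, and library totals called 10 homeologs higher at 42 h. The cause was not tested. Leaving out each library gave 92 to 99 members higher at 18 h and 91 to 100 at 42 h, 60 to 65 members higher and 7 to 10 lower with time in lactic acid, and 59 to 64 higher and 8 to 10 lower in control. It gave 10 to 14 homeologs higher at 18 h and 13 to 18 at 42 h, and members' shares of 4.43 to 4.77% in lactic acid and 1.28 to 1.63% in control at 18 h. At 42 h the shares were 10.5 to 11.8% in lactic acid and 3.54 to 3.65% in control. The genes of the lists called higher were 116 to 132 at 18 h and 107 to 123 at 42 h, and those called lower 38 to 44 and 13 to 25.

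The replicate numbers did not pair the samples (correlations of same-numbered deviations -0.20 to 0.29, median 0.05). With the replicate block 99 and 100 members were called higher at 18 h and 42 h, 63 higher and 7 lower with time in lactic acid, and 64 higher and 10 lower in control. Without lactic acid replicate 3 at 18 h, 10 members in place of 7 were called lower with time in lactic acid.

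Signs changed in 9 comparisons of named genes, whose main values were at most 0.38 in size. D00320 at 18 h became 0.064 by DESeq2, 0.066 with RLE, 0.19 with library totals, 0.036 without control replicate 3 and 0.19 without lactic acid replicate 3, and at 42 h -0.039 with library totals. G05280_B at 18 h became -0.084 and -0.023 without lactic acid replicates 1 and 2, and the change of I02650_N with time in control -0.10 without control replicate 3 at 18 h and 1.09 without control replicate 1. Of the other comparisons of named genes 1839 kept their side of the threshold, 44 lost it and 28 gained it. Depth limits genes near 1 CPM, and 2 libraries limit control at 18 h.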
